A study of Rattus norvegicus with 12 samples.

Results

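Astrocytes can present antigen and hold on to T cells when they are inflamed, and the 8 genes described here encode surface proteins that take part in that contact. The set holds the inhibitory checkpoint ligands Cd274 (PD-L1) and Pdcd1lg2 (PD-L2), the costimulatory molecules Cd40, Cd80 and Cd86, and the adhesion molecules Icam1, Icam4 and Vcam1. The genes were taken from a fixed list of symbols, and all 8 of 8 had a row of their own among the 18166 genes measured. The list was not chosen on a threshold of change, although it was drawn up with earlier results of these data known.

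The study measured total RNA on 12 one-colour expression arrays from primary astrocyte cultures, which came from the cerebral cortices of Sprague-Dawley rats aged 1 day. Its groups were siSHP_IFNg_GW (SHP siRNA, IFN-γ and GW), siCon_IFNg_GW (control siRNA, IFN-γ and GW), siCon_IFNg (control siRNA and IFN-γ) and siCon (control siRNA with neither agent), with 3 arrays each, numbered 1 to 3 in the labels. All groups were thus transfected with an siRNA, the labels give 3 h for the treatment, and every culture had spent 2 days in serum-free medium meant to deplete microglia and meningeal cells. SHP is the small heterodimer partner, an orphan nuclear receptor without a DNA-binding domain that represses transcription and is encoded by Nr0b2, and the labels identify GW no further. SHP siRNA was given with IFN-γ and GW together, so its effect without either agent was not analysed here. Nothing in the labels says that the 3 arrays of a group came from separate cultures, so each p-value covers no more than the variation among the arrays at hand, and some of it may be technical.

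Full activation of a T cell needs a second signal beside antigen. CD80 and CD86 give it through CD28 and withhold it through CTLA-4, whereas PD-L1 and PD-L2 bind PD-1 and damp the response. CD40 is the receptor for CD40 ligand on helper T cells and signals through TRAF adaptors to NF-κB. ICAM-1 binds the leukocyte integrins LFA-1 and Mac-1, VCAM-1 binds the integrin VLA-4, and ICAM-4 is a related integrin ligand best known from human red cells. Interferon-gamma signals through a receptor that engages JAK1 and JAK2, and its target genes often carry gamma-activated sites (GAS) or interferon-stimulated response elements (ISRE), the second of which IRF1 binds.

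Promoter windows of 250 bases before to 50 bases after the gene start were available from RefSeq (build GRCr8) for 7 of the 8 genes. The 4 windows printed here belong to the genes that, among those with a window, changed most under IFN-γ or GW, and are shown 5′ to 3′ along the gene's strand, with capitals marking matches to the 3 motifs searched. Cd274 lies on chromosome 1 (chr1:236529982-236530281, plus strand), Icam1 (chr8:27829595-27829894, plus strand) and Icam4 (chr8:27842005-27842304, plus strand) are neighbours on chromosome 8, and Vcam1 is on chromosome 2 (chr2:206742734-206743033, minus strand).
Cd274: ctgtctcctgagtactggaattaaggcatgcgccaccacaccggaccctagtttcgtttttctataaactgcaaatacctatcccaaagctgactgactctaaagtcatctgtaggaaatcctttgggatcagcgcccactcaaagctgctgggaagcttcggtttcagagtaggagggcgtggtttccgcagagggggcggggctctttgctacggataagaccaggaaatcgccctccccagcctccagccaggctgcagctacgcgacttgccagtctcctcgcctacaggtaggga
Icam1: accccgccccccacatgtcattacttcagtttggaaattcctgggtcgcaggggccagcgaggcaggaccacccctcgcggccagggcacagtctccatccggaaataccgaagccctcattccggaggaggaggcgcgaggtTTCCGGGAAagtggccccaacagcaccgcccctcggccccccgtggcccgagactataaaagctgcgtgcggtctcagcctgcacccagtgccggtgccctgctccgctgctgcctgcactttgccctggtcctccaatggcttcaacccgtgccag
Icam4: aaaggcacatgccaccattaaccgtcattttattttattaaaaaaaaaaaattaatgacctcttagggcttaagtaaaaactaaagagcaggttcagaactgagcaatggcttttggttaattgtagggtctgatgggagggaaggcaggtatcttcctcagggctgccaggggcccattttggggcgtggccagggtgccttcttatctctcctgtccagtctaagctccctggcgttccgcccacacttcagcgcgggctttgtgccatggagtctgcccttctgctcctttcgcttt
Vcam1: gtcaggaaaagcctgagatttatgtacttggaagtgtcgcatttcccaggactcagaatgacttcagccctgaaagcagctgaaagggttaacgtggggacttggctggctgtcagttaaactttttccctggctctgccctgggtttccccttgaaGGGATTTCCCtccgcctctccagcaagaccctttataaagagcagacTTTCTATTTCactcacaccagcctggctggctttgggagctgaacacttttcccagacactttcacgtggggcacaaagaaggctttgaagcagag

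The motifs were GAS (TTCNNNGAA), ISRE (GAAA, then any 2 bases, then GAAA) and the NF-κB consensus, each read on both strands, and no match overlapped another. The Icam1 window holds 1 GAS match, TTCCGGGAA, at positions -107 to -99, counted back from the end of the 250 bases before the start. The Vcam1 window holds an NF-κB match, GGGATTTCCC, at -93 to -84 and an ISRE match, which reads TTTCTATTTC along the gene's strand, at -46 to -37. The Cd86 window (chr11:77669031-77669330, plus strand) has an NF-κB match at -208 to -199, and the 2 windows listed for Cd80 have a GAS match at -73 to -65 in the first and an ISRE match at -207 to -198 in the second. The Cd274, Icam4 and Pdcd1lg2 windows held no match to these letters, which says nothing about what binds there. Of the 33469 promoter windows in the table, 8.87% held a GAS match, 3.92% an ISRE match and 4.18% an NF-κB match, so a single match is not rare.

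**Figure D1:**
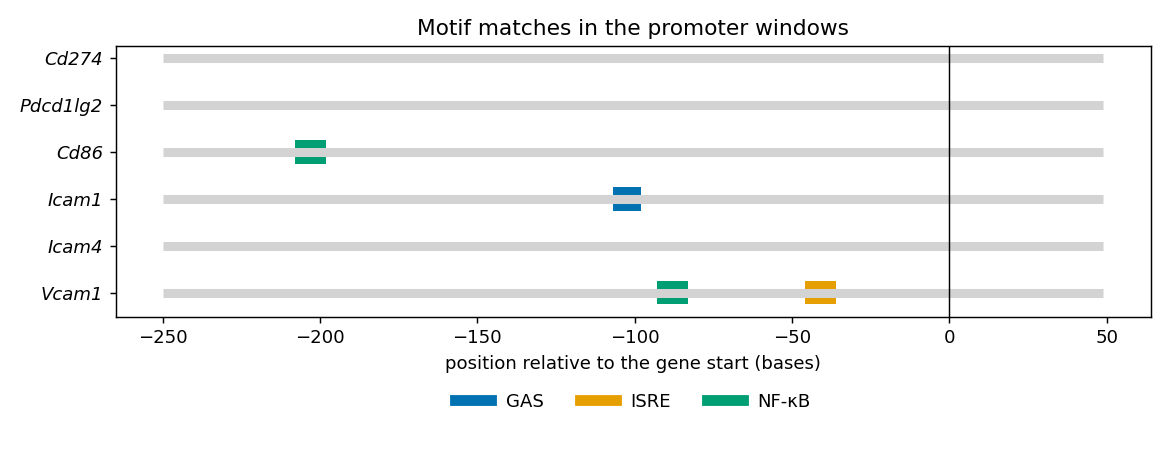
Motif matches in the promoter windows of 6 of the genes, drawn by position relative to the gene start in bases. Grey bars are the windows of 300 bases and coloured boxes the matches; Cd80, with 2 windows, is not drawn. Vcam1 has an NF-κB and an ISRE match, Icam1 a GAS match, Cd86 an NF-κB match, and Cd274, Pdcd1lg2 and Icam4 none.

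Values are log2 expression as deposited. Signal was read as background at or below 5.32, the 95th percentile of 1344 olfactory and vomeronasal receptor genes, whose products serve mainly in sensory neurons. Cd274, Cd40, Cd80, Cd86, Icam1 and Vcam1 were above it on all 12 arrays. Icam4 was above it on 3 of 3 arrays of each IFN-γ group and on 1 of 3 siCon arrays, and Pdcd1lg2 only on the array numbered 1 of each group. Nr0b2, the siRNA target, lay between 4.59 and 5.12 on all 12 arrays and so under background in every group, which means that its knockdown could not be checked. The mean of the 10 astrocyte markers measured was 9.996 to 10.5 on the arrays. Single markers ran from Sox9, near background at 5.46 to 5.97, to Fabp7 at 12.2 to 12.6, and Gfap lay between 11.7 and 12.1.

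Array number 1 differed from numbers 2 and 3 in every group, also for several of the 8 genes. The series text says that 4 samples of an earlier series were analysed again in it, and the labels do not say which of these arrays, if any, those are, nor what the numbers stand for. Mean meningeal and fibroblast marker levels were 7.60 to 8.04 on the arrays numbered 1 and 9.23 to 9.71 on the others. For astrocyte markers the means were 9.996 to 10.20 on the arrays numbered 1 and 10.32 to 10.52 on the others. For endothelial markers, close to background, they were 5.31 to 5.49 on the arrays numbered 1 and 5.73 to 5.87 on the others. Mean microglia and myeloid marker levels were 8.51 to 9.36 on the arrays numbered 1 and 8.23 to 8.77 on the others. Within each group that mean was highest on the array numbered 1. Cd86 was higher on the array numbered 1 than on the mean of the other two by 0.99 to 1.72 in every group, and Vcam1 by 0.68 to 1.36, Icam1 by 0.58 to 1.90 and Pdcd1lg2 by 0.84 to 1.85 (log2 differences). Cd274 differed in another way: the same difference was -1.17 in siSHP_IFNg_GW and -1.65 in siCon_IFNg, but 1.59 in siCon_IFNg_GW and 2.78 in siCon. Each comparison is therefore given for all 12 arrays, with the array number as a block, and for the 8 arrays numbered 2 and 3. In a culture, fewer cells of a type and less RNA per cell cannot be told apart.

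**Figure D2:**
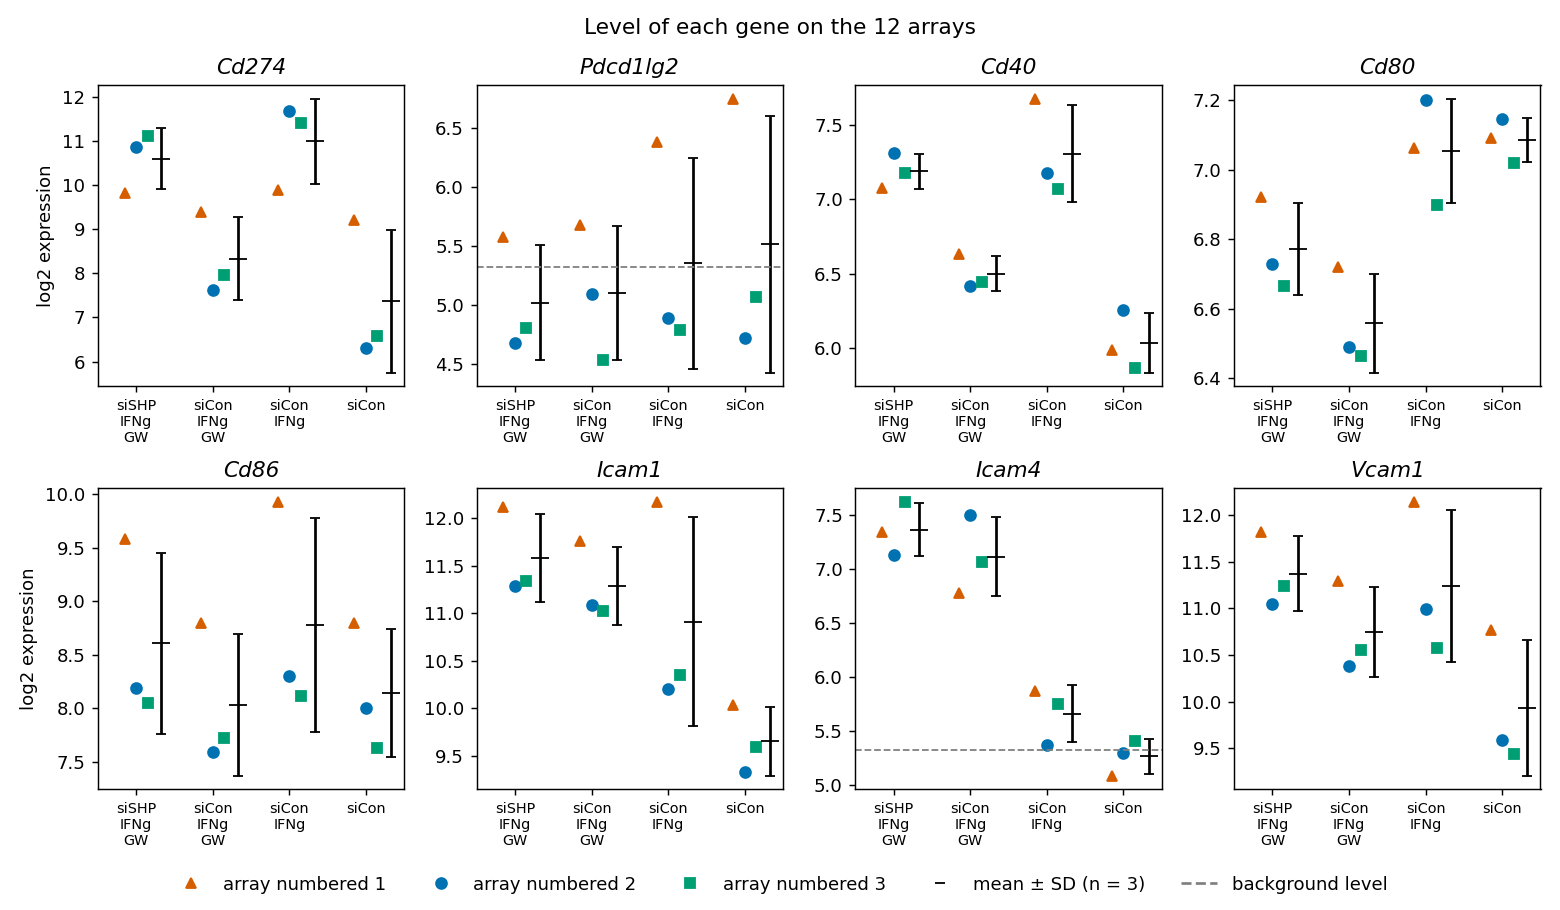
Log2 expression of the 8 genes on each array, by group, with the array number shown by marker shape and the mean ± SD (n = 3) beside the points; the dashed line is the background level of 5.32. Cd274 on the arrays numbered 2 and 3 lies between 10.9 and 11.7 in siSHP_IFNg_GW and siCon_IFNg and between 6.30 and 7.97 in the other groups, while its arrays numbered 1 all lie between 9.21 and 9.89.

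Cd274, the gene for PD-L1, had the widest range of the 8. Its levels were 9.82, 10.86 and 11.11 in siSHP_IFNg_GW (arrays 1, 2 and 3), 9.39, 7.63 and 7.97 in siCon_IFNg_GW, 9.89, 11.68 and 11.41 in siCon_IFNg, and 9.21, 6.30 and 6.57 in siCon. On the arrays numbered 2 and 3 the order was siCon_IFNg, siSHP_IFNg_GW, siCon_IFNg_GW and siCon, with no overlap between neighbours, and the arrays numbered 1 kept the same order within a span of less than 1 log2 unit. Over all arrays, siSHP_IFNg_GW averaged 10.60 ± 0.69 and siCon_IFNg 10.99 ± 0.96 (SD, n = 3 each), a pair of means closer than their spread.

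The 3 changes of Cd274 between neighbouring treatments ran the same way on every array number but differed in size. siCon_IFNg minus siCon was 0.68, 5.38 and 4.84 for the numbers 1, 2 and 3, siCon_IFNg_GW minus siCon_IFNg was -0.50, -4.05 and -3.44, and siSHP_IFNg_GW minus siCon_IFNg_GW was 0.42, 3.23 and 3.14. Over all 12 arrays none passed the limma fit at an adjusted p of 0.05. The change was 3.63 with IFN-γ (SE 0.78, adjusted p = 0.18), -2.66 with GW added (SE 0.78, adjusted p = 0.18) and 2.27 with SHP siRNA (SE 0.78, adjusted p = 1.0). The block on the array number gave adjusted p values of 0.073, 0.074 and 0.81, and a batch block that set number 1 apart gave 0.045, 0.052 and 0.65.

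On the 8 arrays numbered 2 and 3 all of these comparisons passed. Cd274 rose with IFN-γ by 5.11 (SE 0.16, 34.5-fold, adjusted p = 4.85e-06). With GW added it fell by 3.74 (SE 0.16, 13.4-fold lower, adjusted p = 8.21e-06), and was higher by 3.19 with SHP siRNA (SE 0.16, 9.10-fold, adjusted p = 5.29e-05). With IFN-γ and GW together, against siCon, it remained 1.36 higher (SE 0.16, adjusted p = 0.0033); over all 12 arrays that difference was 0.97 (SE 0.78, adjusted p = 0.75). The difference between array number 1 and the others was itself tested, with the spread taken from numbers 2 and 3 because number 1 has 1 array a group. It passed for the IFN-γ change (-4.43, adjusted p = 4.45e-04), the GW change (3.24, adjusted p = 0.0014) and the SHP siRNA change (-2.76, adjusted p = 0.0066).

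Among the 8 genes, Icam1 was the other one whose change differed on array number 1. This test called 2 of 8 for IFN-γ, where 2.43% of all genes were called, 2 of 8 for GW (3.02%), 1 of 8 for SHP siRNA (0.721%) and 0 of 8 for IFN-γ with GW against siCon (0.0495%).

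**Figure D3:**
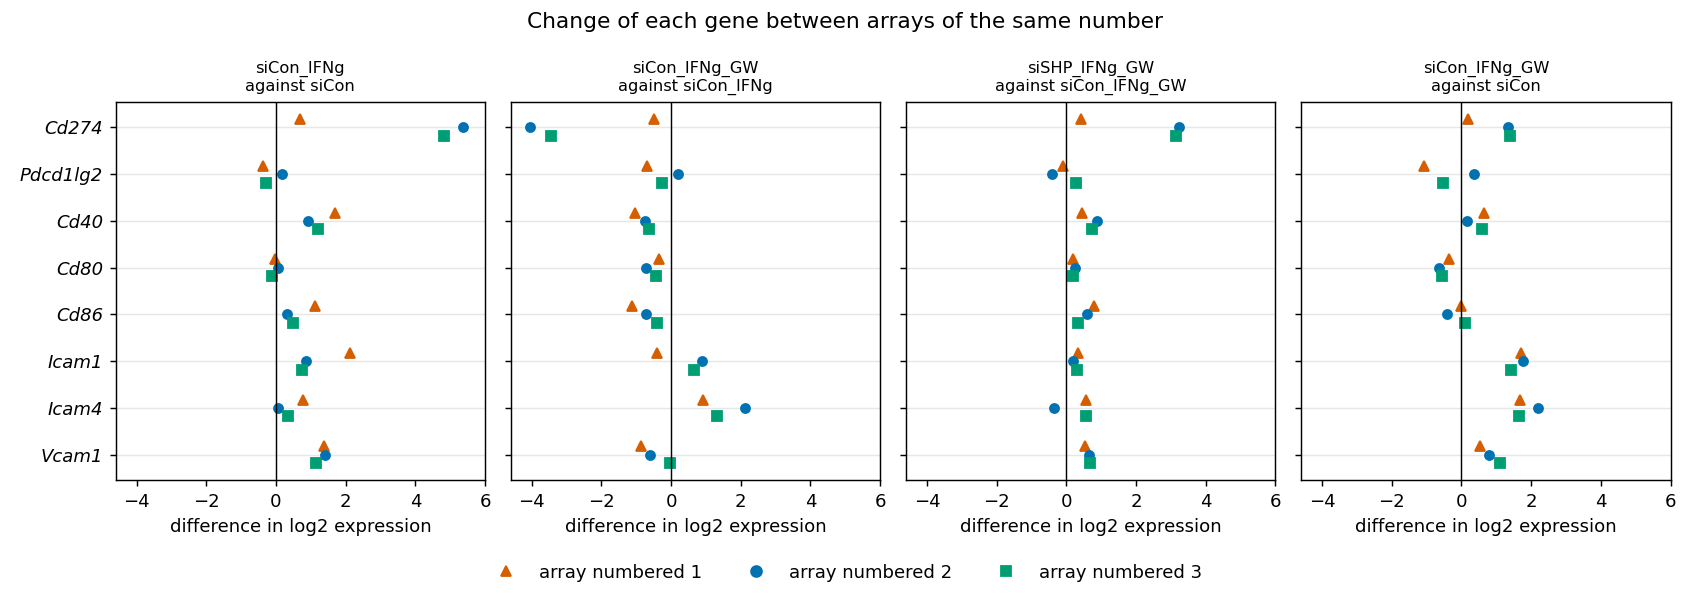
Log2 difference between arrays of the same number for each gene, in the 4 comparisons, with the array number shown by marker shape. For Cd274 the points numbered 2 and 3 lie at 4.84 and above for IFN-γ, at -3.44 and below for GW and at 3.14 and above for SHP siRNA, while the points numbered 1 lie within 0.68 of 0.

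Pdcd1lg2, the second PD-1 ligand, gave a signal above background only on the arrays numbered 1. Those read 5.58 in siSHP_IFNg_GW, 5.68 in siCon_IFNg_GW, 6.38 in siCon_IFNg and 6.75 in siCon, whereas the other 8 arrays lay between 4.54 and 5.09. Its changes were -0.08 with SHP siRNA, -0.25 with GW and -0.16 with IFN-γ, each with SE 0.56, and no fit called it. It lies next to Cd274 on chromosome 1, but at these levels any difference under the background level was not detectable.

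The costimulatory receptor Cd40 rose with IFN-γ and was lower when GW was added. Its levels were 7.07, 7.31 and 7.18 in siSHP_IFNg_GW, 6.63, 6.42 and 6.45 in siCon_IFNg_GW, 7.68, 7.17 and 7.07 in siCon_IFNg, and 5.99, 6.26 and 5.86 in siCon. The siCon_IFNg_GW arrays lay above all siCon arrays and below all arrays of the other groups, while the siSHP_IFNg_GW and siCon_IFNg arrays overlapped. With IFN-γ the change was 1.27 (SE 0.16, 2.41-fold, adjusted p = 0.025), and with GW added it was -0.81 (SE 0.16, 1.75-fold lower, adjusted p = 0.048). With the number as a block the adjusted p values were 0.0045 and 0.012.

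Both Cd40 calls lay near the threshold, and several fits with fewer arrays ended them at changes of similar size. The IFN-γ call ended when either group lost its array numbered 2 or 3 (changes of 1.19 to 1.39, adjusted p between 0.072 and 0.12) and in a fit of the compared groups alone (0.25). The GW call ended without any siCon_IFNg_GW array or without siCon_IFNg array 2 or 3 (changes of -0.93 to -0.77, adjusted p of 0.072 to 0.21), with arrays centred on their medians (0.11), with a trended, robust prior (0.052) and in a fit of the compared groups alone (0.27).

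With SHP siRNA, Cd40 was higher on each array number, by 0.44, 0.89 and 0.73. The fitted difference was 0.69 (SE 0.16, unadjusted p = 0.0014, adjusted p = 1.0) over all 12 arrays, and 0.81 (SE 0.13, 1.75-fold, adjusted p = 0.023) on the 8 arrays numbered 2 and 3. Against siCon, Cd40 with IFN-γ and GW was 0.46 higher (SE 0.16, adjusted p = 0.27).

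Cd80 and Cd86, the CD28 ligands, were not called for IFN-γ in any fit, and both were lower with GW once the array number was taken into account. Cd80 read 6.92, 6.73 and 6.67 in siSHP_IFNg_GW, 6.72, 6.49 and 6.46 in siCon_IFNg_GW, 7.06, 7.20 and 6.90 in siCon_IFNg, and 7.09, 7.15 and 7.02 in siCon. IFN-γ alone changed it by -0.03 (95% interval -0.28 to 0.22), and the siCon_IFNg and siCon arrays overlapped. All siCon_IFNg_GW arrays lay below all siCon_IFNg arrays, a difference of -0.50 (SE 0.11, 1.41-fold lower), with an adjusted p of 0.083 over all arrays and 0.012 with the block. Against siCon the difference was -0.53 (SE 0.11, adjusted p = 0.065, and 0.0095 with the block). A second Cd80 row, with a lower mean, read 6.33, 5.86 and 5.77 in siCon_IFNg_GW and 6.21, 6.30 and 6.14 in siCon_IFNg, so its array numbered 1 went the other way.

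Cd86 read 9.58, 8.19 and 8.05 in siSHP_IFNg_GW, 8.80, 7.59 and 7.72 in siCon_IFNg_GW, 9.93, 8.30 and 8.11 in siCon_IFNg, and 8.80, 7.999 and 7.63 in siCon. On every array number it was lower with GW, with differences of -1.13, -0.71 and -0.39. The fitted difference of -0.75 had an adjusted p of 0.73 over all arrays (SE 0.56) and of 0.020 with the number as a block (SE 0.15). IFN-γ alone gave 0.64 (SE 0.56, adjusted p = 1.0; block adjusted p = 0.10), and SHP siRNA gave 0.57 (SE 0.56, adjusted p = 1.0), positive on 3 of 3 array numbers in each case.

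Microglia also express these costimulatory genes, and their markers were present. All 15 measured microglia and myeloid markers were above background in every group, with a mean level of 8.29 to 8.63 in siSHP_IFNg_GW, 8.23 to 8.51 in siCon_IFNg_GW, 8.67 to 8.96 in siCon_IFNg and 8.62 to 9.36 in siCon. With GW added to IFN-γ, 13 of the 15 were lower, with a median change of -0.45. By limma 0 passed over all arrays (7 at an unadjusted p under 0.05). With the block 9 passed as lower, including Ptprc (-0.89, adjusted p = 0.0058) and Tyrobp (-0.84, adjusted p = 0.024), where 6.55% of all genes were called in either direction. On the arrays numbered 2 and 3, 9 passed as lower and 1, Cx3cr1, as higher (0.48, adjusted p = 0.043). There 11.5% of all genes were called in either direction. For IFN-γ with GW against siCon, 15 of 15 were lower, Tyrobp passed over all arrays (-0.92, adjusted p = 0.038) and 13 passed with the block (6.84% of all genes). On the arrays numbered 2 and 3, 13 of the 15 were lower and 7 passed as lower (5.66%). The part of these cells in the lower Cd40, Cd80 and Cd86 was not tested. T cell markers and dendritic and B cell markers were mostly near background, with 6 of 10 and 4 of 9 at or under it, and the T cell receptor genes Cd3d, Cd3e and Cd3g stayed at or below 4.62 on every array.

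Icam4 was called higher with GW over all arrays, with the block and on the arrays numbered 2 and 3. It read 7.34, 7.13 and 7.62 in siSHP_IFNg_GW, 6.77, 7.50 and 7.06 in siCon_IFNg_GW, 5.87, 5.36 and 5.75 in siCon_IFNg, and 5.09, 5.30 and 5.41 in siCon. Every array with GW lay above every array without it. The rise with GW added to IFN-γ was 1.45 (SE 0.20, 2.73-fold, adjusted p = 0.012, and 0.0034 with the block), and IFN-γ with GW against siCon gave 1.85 (SE 0.20, adjusted p = 0.0033). The siCon mean of 5.26 lay under the background level, with 1 of 3 arrays above it, so the size of that second change is uncertain and no fold is given. The siCon_IFNg arrays, at 5.36 to 5.87, lay little above the level of 5.32, so the 2.73-fold rise is uncertain in size too. IFN-γ alone gave 0.40 (SE 0.20, adjusted p = 0.96) and SHP siRNA 0.25 (95% interval -0.19 to 0.70). The call for GW added to IFN-γ ended, at changes of similar size, without siCon_IFNg array 2 or 3 (1.30, adjusted p = 0.061, and 1.495, adjusted p = 0.056) and in a fit of the compared groups alone (1.45, adjusted p = 0.13).

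Icam1, its neighbour on chromosome 8, was higher with IFN-γ, with and without GW. It read 12.11, 11.29 and 11.34 in siSHP_IFNg_GW, 11.76, 11.08 and 11.02 in siCon_IFNg_GW, 12.17, 10.20 and 10.35 in siCon_IFNg, and 10.04, 9.32 and 9.59 in siCon. All arrays with IFN-γ lay above all siCon arrays. With IFN-γ the change was 1.26 (SE 0.47, adjusted p = 0.71; SE 0.23, adjusted p = 0.040 with the block), and with IFN-γ and GW against siCon it was 1.64 (SE 0.47, adjusted p = 0.16; 0.0043 with the block).

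With GW added to IFN-γ, Icam1 differed by -0.41 on the array numbered 1 and by 0.88 and 0.67 on the others. Over all arrays this gave 0.38 (SE 0.47, adjusted p = 0.87), and on the 8 arrays numbered 2 and 3 it gave 0.78 (SE 0.11, 1.71-fold, adjusted p = 0.0032). The difference between array number 1 and the others passed the test for IFN-γ (1.32, adjusted p = 0.011) and for GW (-1.19, adjusted p = 0.017). SHP siRNA changed Icam1 by 0.29 (95% interval -0.74 to 1.32 over all arrays).

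Vcam1 was higher with IFN-γ on each array number, by 1.38, 1.40 and 1.14. Its levels were 11.83, 11.05 and 11.24 in siSHP_IFNg_GW, 11.29, 10.39 and 10.56 in siCon_IFNg_GW, 12.15, 10.99 and 10.58 in siCon_IFNg, and 10.77, 9.59 and 9.44 in siCon. Because the arrays numbered 1 were high throughout, the groups overlapped. The IFN-γ change was 1.30 (2.47-fold), with an adjusted p of 0.65 over all arrays (SE 0.45) and of 0.0072 with the block (SE 0.16). Adding GW gave -0.49 (block adjusted p = 0.11), and IFN-γ with GW against siCon gave 0.81 (adjusted p = 0.56; 0.019 with the block). With SHP siRNA it was 0.63 higher (SE 0.45, adjusted p = 1.0; block adjusted p = 0.72), by 0.53, 0.66 and 0.68 on the array numbers. Endothelial cells are another source of Icam1 and Vcam1: the 7 endothelial markers measured averaged 5.49 to 5.82 in siSHP_IFNg_GW, 5.31 to 5.83 in siCon_IFNg_GW, 5.49 to 5.87 in siCon_IFNg and 5.43 to 5.87 in siCon, and 4 of them (Cldn5, Tek, Tie1 and Emcn) were at or under background on average. Of the others, Cdh5 averaged 8.01 (6.95 to 8.56) and Flt1 6.67 (5.68 to 7.24), both above background on every array. Esam averaged 5.43 (4.97 to 5.67). None of the 7 passed over all arrays or at an unadjusted p under 0.05 there. On the arrays numbered 2 and 3, Cdh5 passed as lower with GW (-0.37, adjusted p = 0.032) and against siCon (-0.41, adjusted p = 0.035), and of the meningeal and fibroblast markers Lum (-1.11, adjusted p = 0.0043) and Pdgfrb (0.61, adjusted p = 0.0043) passed with GW. With GW, 7 of the 8 meningeal and fibroblast markers had negative changes there. Pdgfrb also passed there as lower with IFN-γ (-0.61, adjusted p = 0.0076). In IFN-γ with GW against siCon, Lum (-1.29, adjusted p = 0.0046) and Dcn (-0.60, adjusted p = 0.029) passed there as lower. Over all 12 arrays Lum averaged 4.86 (2.99 to 6.46), under the background level. The part of these cells in the Icam1 and Vcam1 values was not tested.

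Counted over the set, IFN-γ against siCon called 1 of the 8 genes, Cd40, over all arrays, where 0.121% of all genes were called. With the block it called 3 (Cd40, Icam1 and Vcam1; background 0.936%), and on the 8 arrays numbered 2 and 3 it called 4 (the same 3 and Cd274; 4.71%), all of them higher. Of the 8 changes 6 were positive, with a median of 0.95 against -0.03 for all genes.

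GW added to IFN-γ called 2 of 8 over all arrays (Cd40 lower, Icam4 higher; background 0.886%). With the block it called 4 (Cd40, Cd80 and Cd86 lower, Icam4 higher; 6.55%), and on the arrays numbered 2 and 3 it called 6 (the same 4, Cd274 lower and Icam1 higher; 11.5%). The median change was -0.49, against 0.00 for all genes. IFN-γ with GW against siCon called 1 of 8 (Icam4; 0.864%), 4 with the block (Icam1, Icam4 and Vcam1 higher, Cd80 lower; 6.84%) and 5 on the arrays numbered 2 and 3 (the same 4 and Cd274 higher; 5.66%).

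SHP siRNA with IFN-γ and GW, against control siRNA with both, called 0 of 8 by limma over all arrays and 0 of 8 with the block, where 0% of all genes were called in each fit. At an unadjusted p under 0.05 there were 2 of 8 genes and 416 of all 18166 genes, and with the block 5 of 8 and 972 genes. On the arrays numbered 2 and 3 it called 2 of 8, Cd274 and Cd40, both higher (1.47%). Of the changes 7 were positive, with a median of 0.43 against -0.02 for all genes, and Pdcd1lg2 was the exception. These comparisons share groups, so their directions are not independent of each other.

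**Figure D4:**
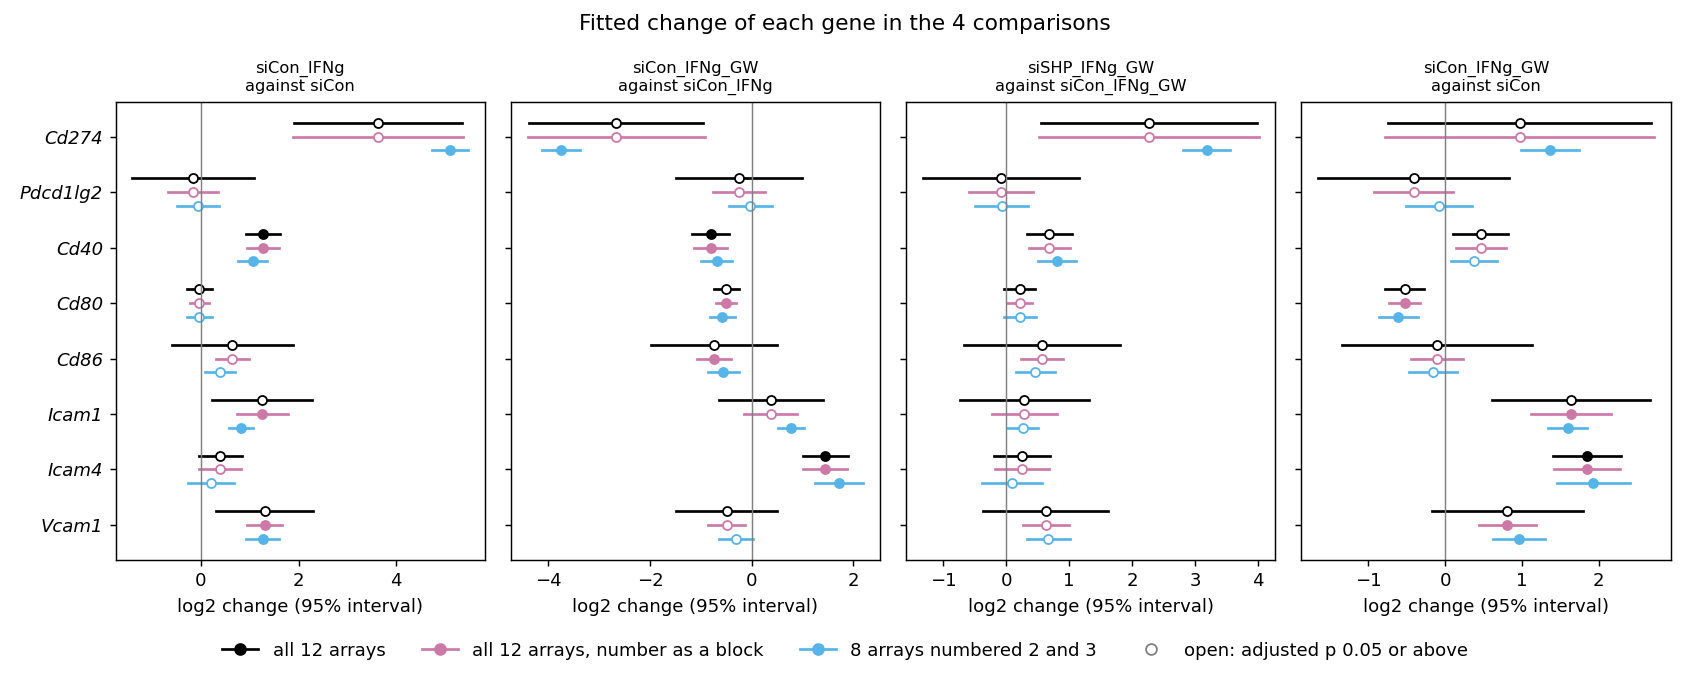
Fitted log2 change with its 95% interval for each gene in the 4 comparisons, from all 12 arrays, from all 12 arrays with the number as a block, and from the 8 arrays numbered 2 and 3; filled points have an adjusted p below 0.05. The intervals of Cd274 narrow on the 8 arrays, where its SE is 0.16 against 0.78 over all 12, and Icam4 is filled in all fits of both GW comparisons of control siRNA cells.

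Other ligands of T cells gave few calls. Of 7 measured B7 and butyrophilin family genes, limma called 0 over all arrays in any comparison (0 to 2 a comparison at an unadjusted p under 0.05), and with the block Btn2a2, a butyrophilin that restrains T cells, passed in IFN-γ with GW against siCon (0.77, adjusted p = 0.048). The abundant Cd276 (B7-H3) and Vsir (VISTA) stayed between 9.34 and 10.1. Of 10 further ligands of T cell receptors, Pvr (CD155, a ligand of CD226 and TIGIT) passed in IFN-γ with GW against siCon (2.66, SE 0.49, adjusted p = 0.036). With the block, Pvr also passed for IFN-γ (1.52, adjusted p = 0.031) and for GW (1.14, adjusted p = 0.036). Cd48, a ligand of the 2B4 receptor, passed as lower in that fit, with GW (-0.31, adjusted p = 0.048) and in IFN-γ with GW against siCon (-0.42, adjusted p = 0.015). Lgals9 (galectin-9, a TIM-3 ligand) passed on the arrays numbered 2 and 3, lower with GW (-0.91, adjusted p = 0.0042) and higher with SHP siRNA (1.00, adjusted p = 0.0092).

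Of 6 TNF family ligands, Tnfsf15, which costimulates T cells through DR3, passed with the block, higher with IFN-γ (1.87, adjusted p = 0.0021) and lower with GW (-0.96, adjusted p = 0.016). Cd40lg, the partner of CD40, lay at or below 3.57 on every array and so under background. Of the 11 measured receptors of T cells, limma called 0 in any of these fits, with 0 at an unadjusted p under 0.05 over all arrays.

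The 7 integrin genes measured encode chains of ICAM-1 and VCAM-1 receptors. All 7 had negative changes with GW, with a median of -0.45, but over all arrays limma called 0, with 0 at an unadjusted p under 0.05. With the block, Itga4, the α chain of VLA-4 (-0.83, adjusted p = 0.012), and Itgam, the α chain of Mac-1 and also a microglia marker (-0.64, adjusted p = 0.026), passed. Of 12 other adhesion genes, limma called 0 over all arrays and 0 with the block (up to 3 a comparison at an unadjusted p under 0.05 in either fit). On the arrays numbered 2 and 3, Mcam was higher with GW (0.63, adjusted p = 0.032).

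Of 9 measured genes of CD40 signalling, 8 had positive changes with GW over all arrays, with a median of 0.28, but limma called 0 of 9 (2 at an unadjusted p under 0.05). With the block Map3k14, the NF-κB inducing kinase (0.93, adjusted p = 0.027), and Nfkbia, the NF-κB inhibitor (1.44, adjusted p = 0.038), passed. On the arrays numbered 2 and 3, 7 of 9 passed as higher, including Birc3 (0.93, adjusted p = 7.05e-04) and Relb (0.90, adjusted p = 5.46e-04). There 11.5% of all genes were called in either direction. In IFN-γ with GW against siCon, Map3k14 passed over all arrays (1.34, SE 0.21, adjusted p = 0.017), and 6 of 9 passed with the block (6.84% of all genes).

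Of 11 measured genes on the route from the interferon-gamma receptor to Cd274, Irf1 passed over all arrays with IFN-γ (2.91, SE 0.23, adjusted p = 7.06e-04) and in IFN-γ with GW against siCon (2.35, SE 0.23, adjusted p = 0.0017). With the block, Jak2 (0.98, adjusted p = 0.0035) and Stat3 (0.59, adjusted p = 0.035) also passed with IFN-γ, and Jak2 (-0.68, adjusted p = 0.0067) and Cmtm6, which stabilises PD-L1 protein (-0.33, adjusted p = 0.035), were lower with GW. On the arrays numbered 2 and 3, 6 of 11 passed as higher with IFN-γ (4.71% of all genes called in either direction). With GW 6 passed as lower and 1 as higher (11.5%), and with SHP siRNA 5 passed as higher (1.47%). The SHP siRNA changes on those arrays were 1.55 for Irf9, 1.45 for Stat2, 1.37 for Irf1, 0.65 for Jak2 and 0.63 for Irf2, beside 3.19 for Cd274.

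The genes most like each member were ranked among 12494 genes above background, by Pearson's r over the 12 arrays after each array number's mean was removed. These arrays share groups and numbers, so r is a description. Cd274 was most like Ralgds (r = 0.997), Adamts3 (0.987) and Gbp5 (0.985), and Icam1 was most like Birc3 (0.998), Csf1 (0.996) and Stx11 (0.994). Cd40 was most like Cx3cl1 (0.98), Slc1a5 (0.97) and Cflar (0.96), Icam4 most like Srfbp1 (0.98), Aff4 (0.98) and Mafk (0.98), and Vcam1 most like Kcnj2 (0.98), Hcar2 (0.96) and Txnrd1 (0.96). The values for Cd80 (Glt8d1, Nme1 and Sec63), Cd86 (Rbm47, Cemip2 and Exoc3l4) and Pdcd1lg2 (Itgax, Pdrg1 and Nfasc) ran from 0.92 to 0.96. Pdcd1lg2 was above background only on the arrays numbered 1, so its r values rest largely on levels under background.

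Within the set, Cd40 and Vcam1 were the most alike pair (r = 0.93), followed by Icam1 and Icam4 (0.86) and by Cd40 and Cd86 (0.85). Cd274 was closer to Vcam1 (0.79) and Cd40 (0.78) than to Icam1 (0.42) or Icam4 (0.17), and Cd80 ran opposite to Icam4 (-0.86).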

How the data were processed

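RNA of cultured rat astrocytes was measured on 12 1-colour arrays (4 groups, 3 arrays each). The deposited values are log2 expression per array row, normalized by the authors with a method not given in the sources used here. The log2 scale was read from their range of 1.01 to 13.43, and array medians were 5.51 to 5.67. Of 36685 rows, 18511 are paired with 1 gene by the platform annotation, 575 with several and 17599 with none, and 18394 of the first matched RefSeq by Entrez ID. Where a gene had several rows (291 genes), the row with the highest mean was kept, which left 18166 genes. Arrays carry no read depth, and their number limits the precision.

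Group means were fitted with limma 3.58.1 (R 4.3.3) over all 12 arrays, with eBayes and Benjamini-Hochberg adjustment over all genes, and a gene was called at an adjusted p below 0.05. The shares of all genes called count both directions. Intervals are 95% intervals of that fit. Arrays of the same number deviated together from their group means. The pairwise r was 0.63 to 0.77 within number 1, 0.48 to 0.58 within number 2 and 0.43 to 0.55 within number 3, above the limit of 0.1 set for a pairing. Deviations from a group mean cancel within the group, so a distinct number 1 alone can give the r within numbers 2 and 3. These r values therefore do not show that the arrays numbered 2, or those numbered 3, were paired. Fits with the number as a block are given beside the results as an alternative. Other fits left out number 1, crossed it with group, took it as a batch, or changed the scaling, the low-value filter, the rows of a gene, the prior or the arrays used. The 8 genes, the gene lists and the tests were chosen with earlier results of these data known. The rule for named genes takes all 8 genes, the genes of each pathway list called over all 12 arrays (up to 4 with the smallest p) and the 3 genes most like each member; genes called in other fits and marker genes are examples chosen after their values were seen. Figures were drawn with matplotlib 3.10.9.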

Additional observations from a re-analysis of the deposited data

Results flagged for a closer look

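5 changes of these genes differed between the arrays numbered 1 and those numbered 2 and 3, by limma's test of the difference itself with Benjamini-Hochberg adjustment over all genes. The array numbered 1 is single in each group and was assumed to vary like the others. Cd274 changed less on number 1 in 3 of them: the change on number 1 minus that on numbers 2 and 3 was -4.43 for siCon_IFNg against siCon (adjusted p = 4.45e-04), 3.24 for siCon_IFNg_GW against siCon_IFNg (adjusted p = 0.0014) and -2.76 for siSHP_IFNg_GW against siCon_IFNg_GW (adjusted p = 0.0066). Icam1 changed more on number 1 with IFN-γ, by 1.32 (adjusted p = 0.011), and for GW the difference was -1.19 (adjusted p = 0.017). The cause was not tested.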

How the results depend on the processing

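The counts of called genes depended most on how the array number was treated. With the replicate number as a block, the called genes were 170, 1189 and 1242 of all genes for IFN-γ against siCon, GW added to IFN-γ, and IFN-γ with GW against siCon, and 3, 4 and 4 of the 8 members, against 22, 161 and 157 genes and 1, 2 and 1 members without it. With number 1 as a batch block they were 232, 1558 and 1604 genes and 4, 4 and 4 members, and 1 gene was called for SHP siRNA. Fits of the compared groups alone called 7, 4 and 32 genes, and 0 members for IFN-γ and 0 for GW. Centring arrays on their medians called 79 genes in each of the 2 GW comparisons of control siRNA cells and 1 member for GW added to IFN-γ, and for IFN-γ it gave 12 higher and 3 lower genes against 15 and 7. The trended, robust prior called 1 member for GW, and the filter on low values called 2 for IFN-γ with GW against siCon.

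Leaving out replicate 1 in all groups, or 1 array at a time, gave 2 to 856 genes and 0 to 4 members for IFN-γ, 27 to 2081 and 0 to 6 for GW, 0 to 267 and 0 to 2 for SHP siRNA, and 23 to 1028 and 1 to 5 for IFN-γ with GW against siCon. In these fits 13 changes of single members turned sign, none of them called. Pdcd1lg2 ranged from -0.68 to 0.46 for IFN-γ, -0.54 to 0.26 for GW, -0.36 to 0.21 for SHP siRNA and -0.81 to 0.21 for IFN-γ with GW against siCon. Cd80 ranged from -0.10 to 0.0459 for IFN-γ, and Cd86 from -0.49 to 0.22 for IFN-γ with GW against siCon. Of the other alternatives for single members, 417 kept direction and call, 30 gained a call and 16 lost one. Apart from the construction of the fits with fewer arrays, the cause was not tested.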
